A study of Caenorhabditis elegans with 23 samples.

Results

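The major sperm protein (msp) genes and 3 smaller sperm gene families of Caenorhabditis elegans were followed across messenger RNA and small RNA libraries of 2 isolates. The members were all genes in the deposited tables whose symbol starts with msp-, ssp-, smz- or nspd-, 55 of 46904 gene IDs: 31 msp, 12 ssp, 10 nspd and 2 smz genes. The genes were taken by name alone, though the families were chosen with earlier results of these data known.

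The worms were whole adults of day 1, grown at 20 °C with E. coli OP-50 as food, and 12 mRNA libraries and 11 small RNA libraries were sequenced. They fall into 4 groups: N2 (the laboratory reference strain), MY16 (a wild isolate), N2_Star and MY16_Star. The labels do not say what Star denotes, give no sex and name no allele or agent that would set the groups apart. The series title names small RNA inheritance without the nucleus as its subject. Each group had 3 libraries per assay, except that N2_Star had 2 of small RNA. The design text speaks of a failed MY16_Star small RNA library, whereas the sample list and the columns hold 3 of MY16_Star and 2 of N2_Star. The replicates are called biological, and nothing states how the cultures were kept apart, so the p-values measure the spread between these samples.

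As background, nematode sperm crawl by means of a cytoskeleton of major sperm protein in place of actin, and the same protein, released from sperm, is the signal that triggers oocyte maturation and ovulation. Hermaphrodites make sperm late in larval life, switch to oocytes and store the sperm, so an adult carries sperm RNA made earlier. The ssp genes encode small sperm-specific proteins related to major sperm protein, the smz genes encode sperm meiotic proteins with a PDZ domain, and the nspd genes encode small nematode-specific peptides whose function is not established. The germline also makes small RNAs antisense to many sperm genes, which are bound by Argonaute proteins such as ALG-3 and ALG-4.

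The 31 msp genes lie in blocks on 2 chromosomes of WBcel235: 13 between positions 4785898 and 5810330 of chromosome II and 18 between 5055631 and 10143740 of chromosome IV. In the RefSeq annotation 28 of the 31 span 384 bases, 1 spans 360 and 2 span 234. The nspd genes span 213 to 222 bases. Coordinates were matched by symbol for 53 of the 55 members. The exceptions were WBGene00006038 and WBGene00006040, both listed as ssp-9. The msp genes are near-identical copies, so a read from one can be given to another or set aside, and each value per gene carries that uncertainty. In mRNA, 5.37% to 9.28% of a library's counts stood in a summary line for low alignment quality, which was at 0 in every small RNA library, so the assays did not treat repeated copies alike. Reads of MY16 were aligned to the N2 genome, so a copy that differs in MY16 can lose or gain reads at the same RNA level. The part of either in the results per gene was not tested.

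The depth of the mRNA libraries was 9362590 to 23150198 gene counts, and that of the small RNA libraries was 1778321 to 19563562. Levels are counts per 1000000 gene counts, scaled by TMM factors (CPM). A count of 0 allows up to 3 counts. At these depths that is 0.13 to 0.32 CPM for mRNA, and for small RNA it is 0.153 to 1.69 CPM, limits that cover counting error only. A gene was tested where the edgeR filter on low counts kept it, which left 50 members in mRNA and 42 in small RNA, 41 of them in both. The genes msp-32, msp-58, msp-79 and nspd-8 were tested in neither assay, and nspd-8 had no count in any library. The low count filter left out ssp-32 in mRNA only. A gene was called where its edgeR quasi-likelihood p, adjusted by Benjamini and Hochberg over all genes of the assay, was under 0.05.

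The mRNA of the 4 families was lower in MY16 than in N2 and varied widely within the MY16, MY16_Star and N2_Star groups. The 31 msp genes together were at 302, 308 and 294 CPM in N2, at 118, 368 and 288 in N2_Star, at 68.6, 162 and 192 in MY16 and at 34.1, 48.8 and 128 in MY16_Star. The N2 libraries lay close together and above all 6 libraries of MY16 and MY16_Star, while replicate 1 of N2_Star fell within the range of the MY16 libraries. The group means were 301 ± 7.13 CPM in N2, 258 ± 128 in N2_Star, 141 ± 64.2 in MY16 and 70.5 ± 50.8 in MY16_Star (SD, n = 3). As a share of the N2 mean they were 85.6% in N2_Star, 46.7% in MY16 and 23.4% in MY16_Star. The N2_Star libraries overlapped with those of each other group, and MY16 overlapped with MY16_Star, while N2 overlapped with neither MY16 nor MY16_Star.

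The other families followed the same libraries. The 12 ssp genes summed to 58.8 ± 3.35 CPM in N2, 51 ± 23.1 in N2_Star, 26.8 ± 12 in MY16 and 14.7 ± 11.7 in MY16_Star. The 2 smz genes summed to 33.7 ± 2.9, 28.8 ± 12.7, 16.6 ± 9.37 and 7.86 ± 5.88 CPM in the same order. The 10 nspd genes summed to 109 ± 1.82, 82.5 ± 36.5, 43.3 ± 24.2 and 22.9 ± 15.3 CPM. In each of the 4 families replicate 1 of MY16_Star was the lowest of the 12 libraries. Of the 50 tested members, 39 were lowest in that library, alone or tied. These sums carry no test. In whole worms, fewer sperm per animal and less RNA per sperm cannot be told apart.

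**Figure D1:**
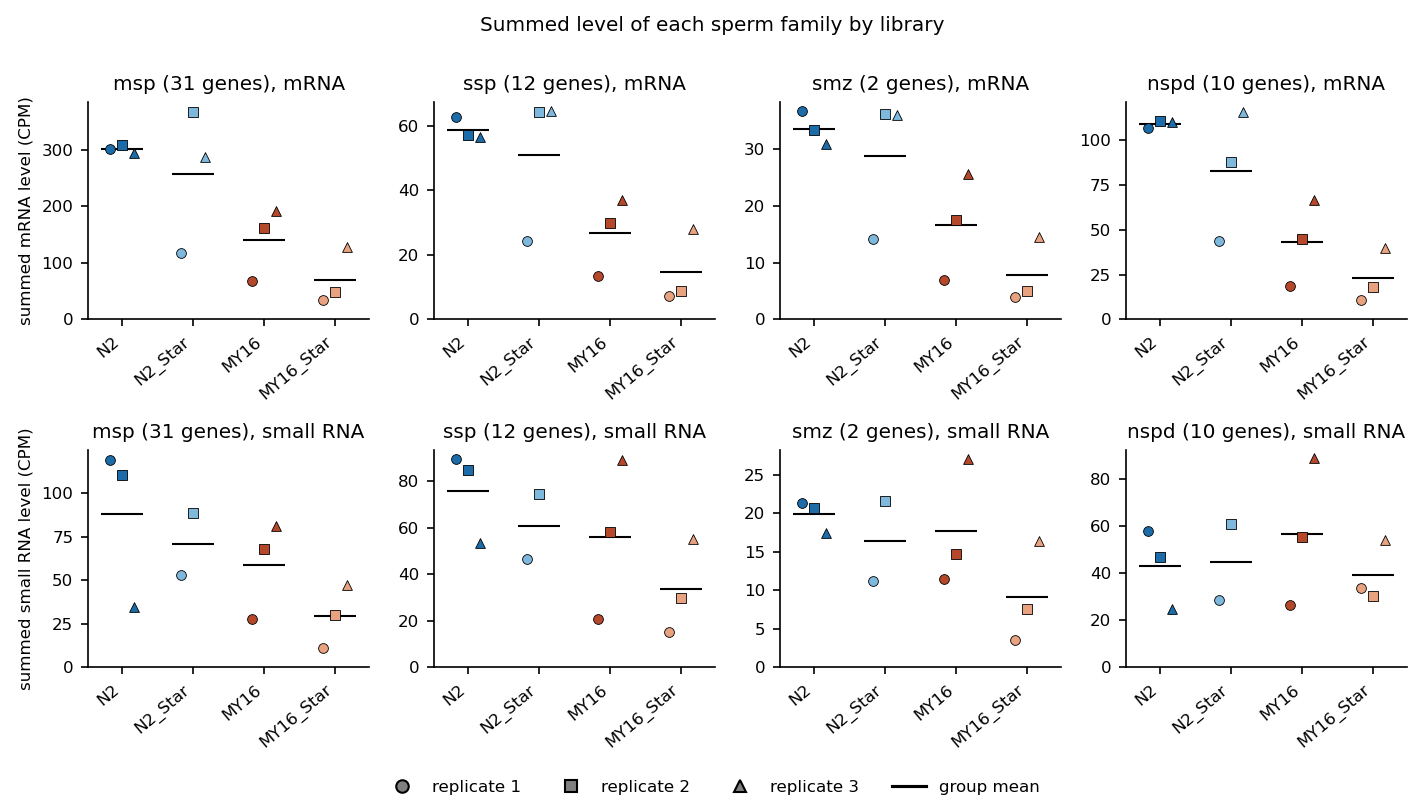
Summed level (CPM, vertical axis) of the msp, ssp, smz and nspd genes in each library, by group, with mRNA and small RNA in separate rows; each point is a library and the bar is the group mean. In mRNA the 3 N2 libraries sit together (msp sums of 294 to 308 CPM), while MY16_Star runs from 34.1 to 128 CPM.

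The most abundant members of each family moved with these sums. The msp gene with the highest mean mRNA level, msp-40, was at 24.5, 22.9 and 23.8 CPM in N2, 10.1, 23.7 and 22.9 in N2_Star, 4.89, 12.1 and 16 in MY16 and 2.62, 3.88 and 10.2 in MY16_Star. Its N2 libraries lay above all MY16 and MY16_Star libraries, and N2_Star overlapped with both. The smz gene smz-1 was at 18, 16.3 and 16.4 CPM in N2, 8, 20.9 and 20 in N2_Star, 3.92, 8.45 and 14.7 in MY16 and 2.5, 2.7 and 8.93 in MY16_Star. The nspd gene nspd-1 was at 24.4, 26.2 and 28.2 CPM in N2, 9.1, 22.7 and 28.9 in N2_Star, 3.18, 10.9 and 16.6 in MY16 and 1.98, 4.76 and 9.38 in MY16_Star. The low libraries were the same for all of these genes: replicate 1 of N2_Star, of MY16 and of MY16_Star, and replicate 2 of MY16_Star. The ssp gene ssp-10 had group means of 14.1 ± 0.815, 13.2 ± 7.56, 8.83 ± 4.12 and 4.41 ± 3.08 CPM in N2, N2_Star, MY16 and MY16_Star.

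Between the isolates, 5 of the 50 tested members were called in mRNA, all msp genes: 1 higher and 4 lower in MY16 than in N2. That is 10% of the members, against 4.03% of the 13983 genes tested, of which 1.72% were called higher and 2.31% lower. The log2 fold change was below 0 for 48 of the 50 members, with a median of −1.16 against −0.02 over all genes tested. The 3 MY16 libraries lay below the 3 N2 libraries for 41 members and above them for 2, where 14.9% and 9% of all genes tested did so. Of the 50 members, 45 were not called, while an alternative fit of only MY16 and N2 tested 48 members and called 13. An unadjusted p under 0.05 was found for 22 of the 50. The smallest adjusted p was 0.172 among the 11 tested ssp genes, 0.398 for the smz genes and 0.0531 among the 9 tested nspd genes.

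The gene msp-76 (chromosome IV, 9689015 to 9689398) was among the most abundant msp genes of N2 and was nearly without reads in MY16. It was at 24, 25.3 and 23 CPM in N2 and 8.45, 29.1 and 22.1 in N2_Star. In MY16 it was at 0, 0.204 and 0.207 CPM and in MY16_Star at 0.0582, 0 and 0.0647. No library of one isolate overlapped with any of the other. MY16 held 6 reads against 1235 in N2, a level 186-fold lower (95% counting interval 85.3 to 508). The fitted log2 fold change was −7.47 ± 0.665 (SE; edgeR adjusted p = 2.67e-05).

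The gene msp-74 (chromosome II, 5115102 to 5115335) went the other way. It was at 0.187, 0.082 and 0.0423 CPM in N2 and 0.0503, 0.567 and 0.148 in N2_Star, against 2.05, 6.16 and 6.94 in MY16 and 1.46, 1.88 and 4.08 in MY16_Star. Its level was at most 0.567 CPM in the libraries named N2 and at least 1.46 CPM in those named MY16. MY16 held 224 reads against 5 in N2, a level 49.5-fold higher (95% counting interval 20.9 to 154). The log2 fold change from the fit was 5.57 ± 0.859 (SE; adjusted p by edgeR = 0.00179).

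The gene msp-19 (chromosome IV, 5260589 to 5260972) had no mRNA read in any of the 6 libraries of MY16 and MY16_Star. It was at 4.37, 2.63 and 2.62 CPM in N2 and at 0.352, 7.71 and 2.36 in N2_Star. Against the mean floor of 0.211 CPM per MY16 library, its level in MY16 was at least 15.2-fold lower than in N2 (edgeR adjusted p = 0.0298). The fitted fold change of a gene at 0 is no measure of size and is left out.

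The other 2 calls were smaller in size and concerned genes that kept reads in MY16. The gene msp-50 (chromosome II, 5199797 to 5200180) was at 23.3, 22.8 and 22.9 CPM in N2, 7.95, 27.5 and 21.8 in N2_Star, 2.5, 5.85 and 6.21 in MY16 and 0.815, 1.53 and 3.36 in MY16_Star. Its log2 fold change in MY16 was −2.25 ± 0.52 (SE; edgeR adjusted p = 0.028). The gene msp-56 (chromosome IV, 9841540 to 9841923) was at 6.3, 7.55 and 6.69 CPM in N2, 2.62, 8.84 and 5.56 in N2_Star, 0.625, 1.32 and 1.04 in MY16 and 0.116, 0.764 and 0.647 in MY16_Star. Its log2 fold change in MY16 was −2.77 ± 0.546 (SE; edgeR adjusted p = 0.00975). For both genes the 6 libraries named MY16 lay below the 6 named N2. Among the 50 tested members such a separation of 6 against 6 libraries was found for 1 higher gene, msp-74, and 5 lower ones, msp-19, msp-50, msp-56, msp-76 and ssp-37, which is 2% and 10% of them. It was found for 3.39% (higher) and 4.73% (lower) of all genes tested. With a library left out, msp-76 and msp-74 were called each time, and the number of members called ranged from 2, without replicate 1 of MY16, to 8, without replicate 1 of N2_Star. It was 3 without any 1 library of N2 and 3 without replicate 2 or 3 of MY16.

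Between the Star groups, 30 of the 50 tested members were called in mRNA, 29 lower and 1 higher in MY16_Star than in N2_Star. That is 60% of the members, against 22.5% of all genes tested, of which 7.69% were called higher and 14.8% lower, and the members' median log2 fold change was −1.78 against −0.12. By family, 17 msp genes were lower and 1 higher of 28 tested, and 4 of 11 ssp genes, both smz genes and 6 of 9 nspd genes were lower. The 5 msp genes called between MY16 and N2 were all called again, in the same direction, in this comparison, which shares no library with the first, although both draw on 1 estimate of the spread. The log2 fold change was −8.71 ± 0.749 for msp-76 (adjusted p = 1.9e-05), −3.33 ± 0.554 for msp-50 (adjusted p = 0.00236), −3.46 ± 0.577 for msp-56 (adjusted p = 0.00238) and 3.28 ± 0.746 for msp-74 (adjusted p = 0.0125; SE, edgeR). The level of msp-19 was at least 19.1-fold lower (adjusted p = 0.0122).

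The other 25 members called between the Star groups, all lower, had log2 fold changes of −2.76 to −1.46 and adjusted p-values of 0.0114 to 0.0483. The msp gene msp-55 was at 5.23, 12.6 and 11.1 CPM in N2_Star and at 1.46, 1.76 and 3.69 in MY16_Star, so the groups did not overlap (log2 fold change −2.07 ± 0.459, SE; adjusted p = 0.0114). The msp gene msp-78 was at 6.29, 18.8 and 15.3 CPM in N2_Star and 2.16, 2.35 and 6.99 in MY16_Star, which overlapped (−1.82 ± 0.497, SE; adjusted p = 0.0256). The nspd genes nspd-2 and nspd-3 had log2 fold changes of −2.03 ± 0.524 and −2.04 ± 0.537 (SE; adjusted p = 0.0208 and 0.0221), and neither overlapped between the groups. The sperm-specific gene ssp-34 was at 4.93, 10.3 and 12.5 CPM in N2_Star and 0.932, 1.7 and 4.01 in MY16_Star (−2.07 ± 0.543, SE; adjusted p = 0.0222). Of the 30 called members, 15 were without overlap between the groups. Among all 50 tested members, MY16_Star lay wholly below N2_Star for 16 and wholly above it for 1, where 20.2% and 16.4% of all genes tested did so.

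This count rested on which libraries were used. It was 6 without replicate 1 of MY16_Star, 6 without replicate 2 of MY16_Star, 9 without replicate 2 of N2_Star, 7 without replicate 3 of N2_Star and 46 without replicate 3 of MY16_Star. In a fit of the 2 Star groups alone it was 5. The difference between this comparison and MY16 against N2 was tested as an interaction, and no member was called (smallest adjusted p = 0.423; median log2 difference −0.70; no member with an unadjusted p under 0.05; DESeq2 also called none). Of all genes tested, 0% were called in it.

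**Figure D2:**
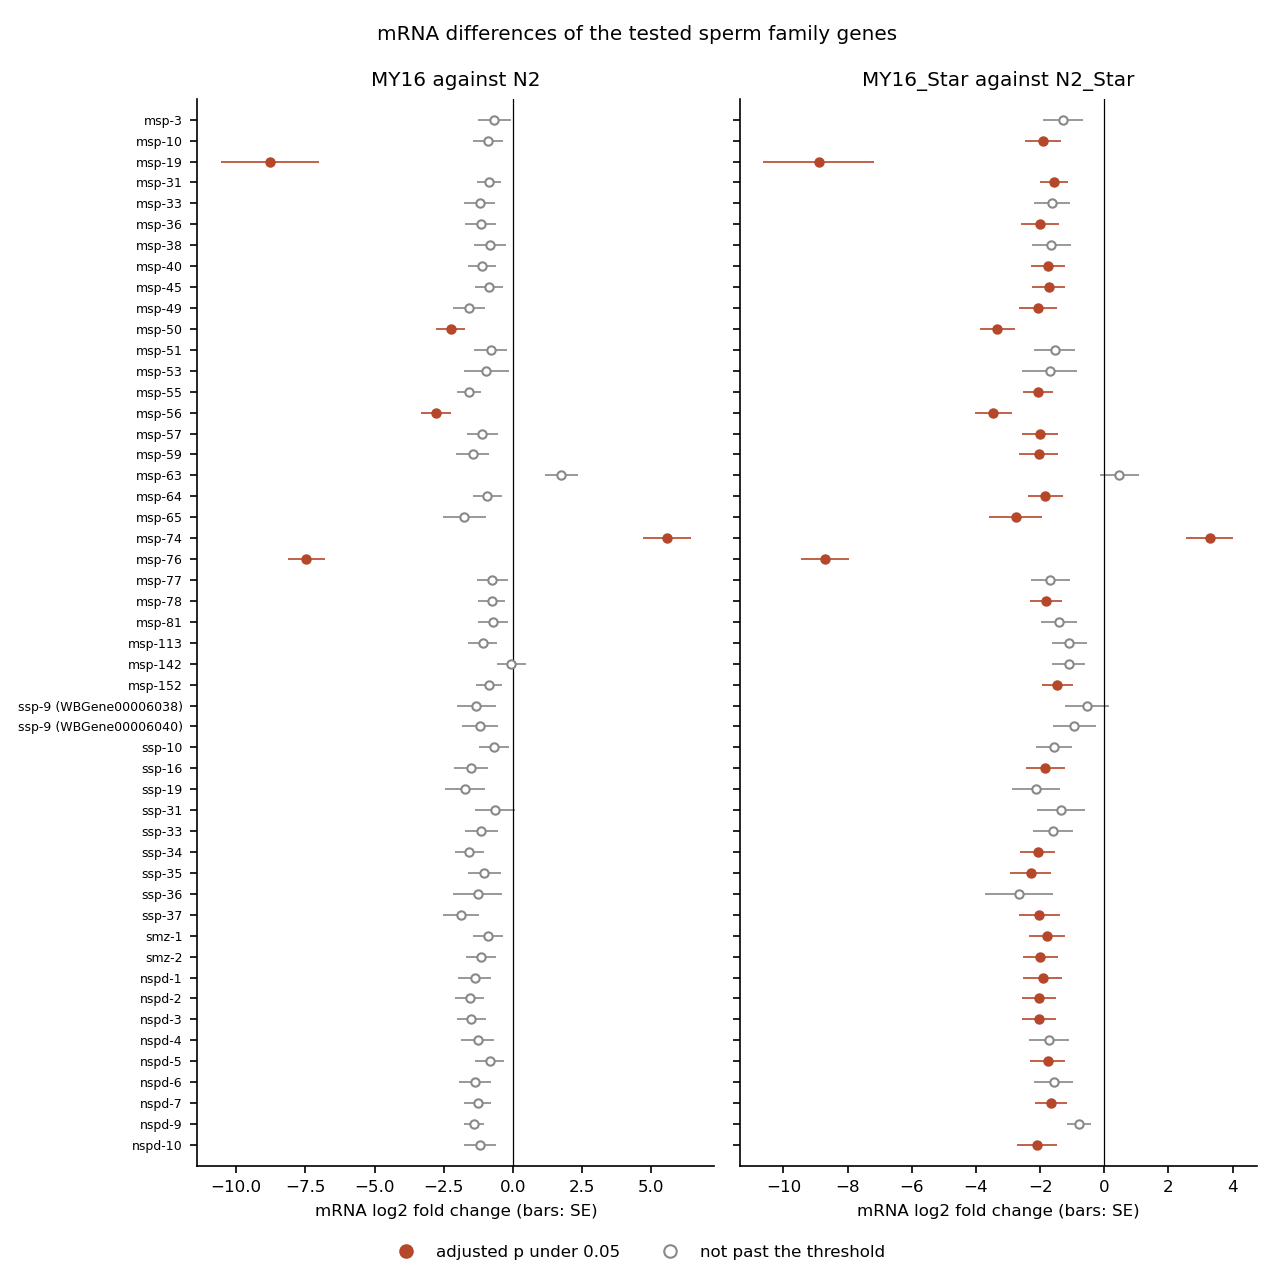
mRNA log2 fold change with its standard error for each tested member, MY16 against N2 on the left and MY16_Star against N2_Star on the right, ordered by family; filled points passed the edgeR threshold. Most members lie between 0 and −3 in both panels, and msp-76 and msp-74 stand far from the others. The points of msp-19, a gene without a read in MY16 and MY16_Star, are fitted values and no measure of size.

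No member was called in mRNA between a Star group and the group of its own isolate. In MY16_Star against MY16 the median log2 fold change was −0.92 against −0.04 over all genes, and 48 of 50 members were below 0. The smallest adjusted p was 0.873, 6 members had an unadjusted p under 0.05, DESeq2 called none, and 0.0215% of all genes tested were called. In N2_Star against N2 the median was −0.30 against −0.01, with 44 of 50 members below 0, and it was 0.04 without replicate 1 of N2_Star. The smallest adjusted p was 0.376, for nspd-9, the one member with an unadjusted p under 0.05. DESeq2 called none there either, and 0.15% of all genes tested were called. These comparisons share their libraries with the comparisons above.

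Among themselves, the msp genes kept different shares of the msp reads in the 2 isolates. For 8 of the 31 msp genes the share of the library's msp mRNA counts did not overlap between the 6 libraries named MY16 and the 6 named N2, and for 23 it overlapped. Such a share within a family has no counterpart over all genes to set beside this count, and the 8 genes were picked by their shares, so what follows on them is a description. By the same measure in small RNA, 1 msp gene had a higher and 1 a lower share, and 29 overlapped. The share is a ratio within a library, so it does not carry the library's total msp level. Of msp reads, msp-76 took 7.17% to 8.2% (median 7.87%) in the libraries named N2 and 0% to 0.171% (median 0.0792%) in those named MY16. The share of msp-50 was 6.74% to 7.81% (median 7.52%) against 2.39% to 3.65% (median 3.18%). The shares of msp-56 and msp-19 were also lower in MY16: 1.93% to 2.45% against 0.342% to 1.56% for msp-56, and 0.299% to 2.1% against 0% for msp-19.

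The gene msp-74 took 0.0144% to 0.154% (median 0.047%) in the libraries named N2 and 2.99% to 4.27% (median 3.71%) in those named MY16. The share of msp-63 was 0.299% to 0.555% (median 0.435%) against 2.37% to 3.01% (median 2.88%), and that of msp-142 was 3.57% to 4.76% (median 3.99%) against 6.85% to 9.19% (median 7.61%). These latter 2 genes are neighbours on chromosome II (5797065 to 5797448 and 5797927 to 5798310), with 478 bases between them. The share of msp-32, a gene below the filter on low counts, was 0% to 0.0288% against 0.0315% to 0.342%. In level, msp-63 was at 1.19 ± 0.232 CPM in N2 and 4.04 ± 1.82 in MY16, with libraries that did not overlap, and was not called (log2 fold change 1.75 ± 0.602, SE; adjusted p = 0.186). The level of msp-142 was 11.6 ± 0.536 CPM in N2 and 11.2 ± 4.98 in MY16, with overlapping libraries.

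The 4 genes of lower share together took 19% ± 0.206 of msp reads in N2, 18.1% ± 1.74 in N2_Star, 4.34% ± 0.391 in MY16 and 3.59% ± 0.964 in MY16_Star (SD, n = 3). The 4 of higher share took 4.3% ± 0.227, 4.78% ± 0.602, 14.5% ± 1.23 and 14.3% ± 1.7 in the same order. That the libraries of each isolate lie together in these sums, Star groups included, follows from how the genes were picked. Among the 21 tested msp genes with overlapping shares, the share in MY16 divided by that in N2 ran from 0.65 for msp-65 to 1.38 for msp-77, with a median of 1.16. The 23 msp genes with overlapping shares summed to 231, 197, 114 and 58.4 CPM in N2, N2_Star, MY16 and MY16_Star, which for MY16 and MY16_Star is 49.4% and 25.3% of N2. With all 31 genes the same values were 46.7% and 23.4%. Among the nspd genes, nspd-2 had a lower share of nspd reads in every library named MY16 (18.9% to 21.8%) than in every library named N2 (22.5% to 24.1%), and no ssp or smz gene differed in this way in mRNA.

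**Figure D3:**
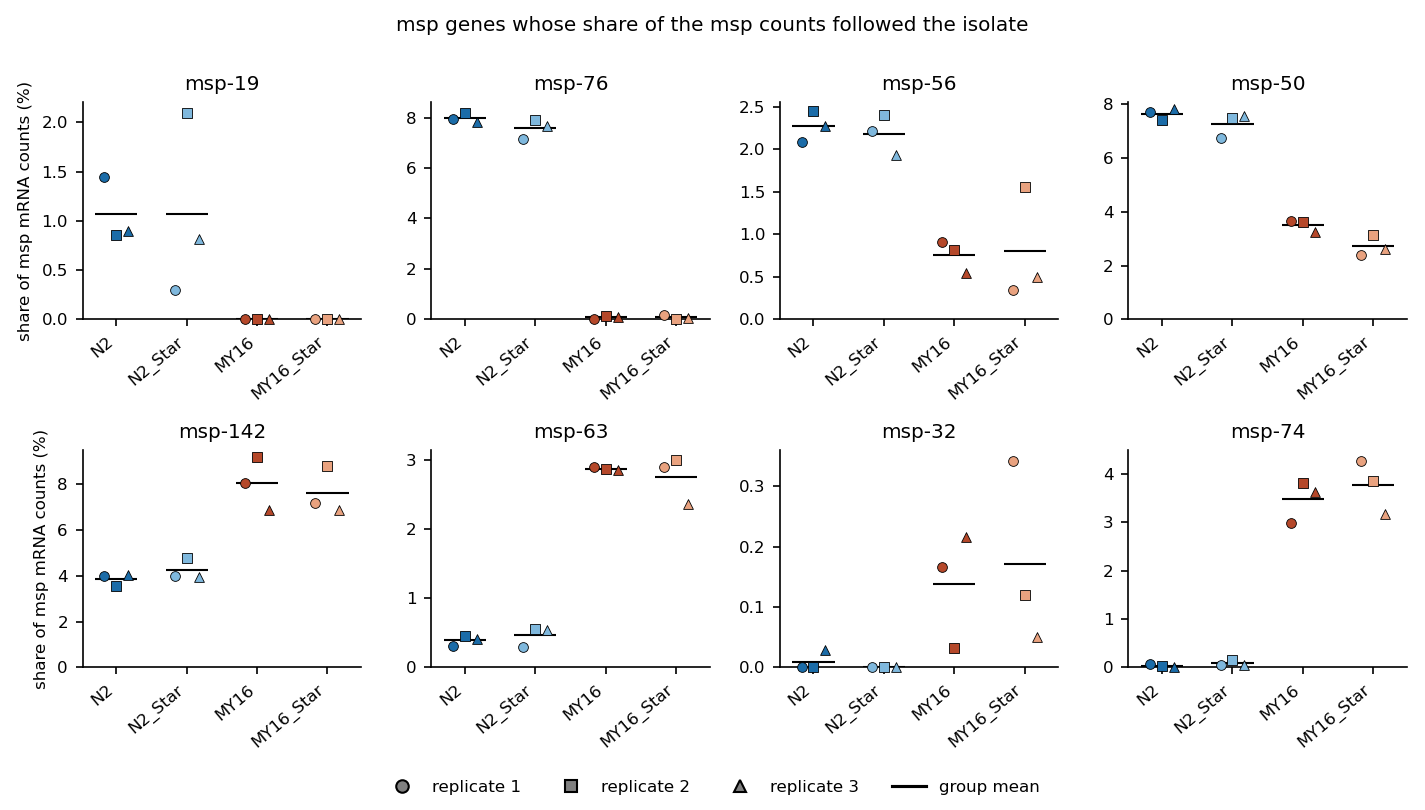
Share of each library's msp mRNA counts (%, vertical axis) taken by the 8 msp genes whose shares did not overlap between the libraries named MY16 and those named N2; each point is a library and the bar is the group mean. The share of msp-76 is 7.17% to 8.2% in the libraries named N2 and at most 0.171% in those named MY16. The genes were picked by this separation.

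Small RNA was also counted to the same genes, and its msp sums overlapped between N2 and MY16 but not between N2_Star and MY16_Star. Whether the counting used strand is not given in the sources used here, and the letters AS in the name of the small RNA table are not defined, so these reads are reported as small RNA of the gene. The msp genes summed to 118.6, 110.1 and 34.4 CPM in N2, 52.7 and 88.3 in N2_Star, 27.5, 68 and 81.2 in MY16 and 11.2, 30 and 47.5 in MY16_Star. Replicate 3 of N2 stood apart from the other 2 N2 libraries. That library also had the lowest depth (1778321 gene counts). The 6 intestine marker genes summed to 200 to 267 CPM of small RNA in it and in both N2_Star libraries, against 18.6 to 40.2 CPM in the other 8. The part of either in these sums was not tested. Without that library the N2 mean of the msp sum was 114 CPM in place of 87.7 ± 46.4.

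The ssp small RNA sums were 75.8 ± 19.7 CPM in N2, 60.5 ± 19.8 in N2_Star (n = 2), 55.9 ± 34.2 in MY16 and 33.5 ± 20.1 in MY16_Star. The smz sums were 19.9 ± 2.06, 16.4 ± 7.36, 17.7 ± 8.22 and 9.17 ± 6.6 CPM. The most abundant members in small RNA were msp-81, ssp-16, smz-1 and nspd-5, and only smz-1 was also the most abundant of its family in mRNA. The level of ssp-16 was 22.3, 20.9 and 14.3 CPM in N2, 11.6 and 19.2 in N2_Star, 4.01, 11.8 and 24.4 in MY16 and 3.52, 8.07 and 15.3 in MY16_Star, with every group overlapping with every other. The level of msp-81 was 8.69 ± 6.4 CPM in N2, 6.32 ± 1.85 in N2_Star, 7.19 ± 4.24 in MY16 and 3.87 ± 2.31 in MY16_Star.

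In small RNA, 4 of the 42 tested members were called between MY16 and N2, 1 higher and 3 lower in MY16. That is 9.52%, below the 18.6% of all 12241 genes tested (8.55% higher and 10% lower), and the median log2 fold change was −0.24 against −0.00. Between the Star groups 5 members were called, 1 higher and 4 lower in MY16_Star. That is 11.9%, below the 14.5% of all genes tested (5.82% higher and 8.66% lower), with a median of −0.85 against −0.02. The 4 called between MY16 and N2 were nspd-9, msp-19, msp-50 and msp-53. The same 4 and msp-76 were called between the Star groups. The first count was 2 without replicate 2 of MY16, and the second was 3 without replicate 1 of N2_Star and 3 without replicate 2 of MY16_Star. All 6 libraries named MY16 lay above all 5 named N2 for 1 tested member, nspd-9, and below them for 2, msp-19 and msp-50, where 9.45% and 10.7% of all genes tested did so.

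The gene nspd-9 (chromosome III, 4830092 to 4830307), the only nspd gene on that chromosome, had small RNA almost wholly in the libraries named MY16. It was at 0.292, 0.357 and 0 CPM in N2 and 0.0635 and 0.436 in N2_Star, against 5.16, 18 and 18.6 in MY16 and 20.5, 12.2 and 11.5 in MY16_Star. Every library of the one isolate was far above every library of the other. MY16 held 252 reads against 13 in N2, a level 53-fold higher (95% counting interval 30.5 to 101; log2 fold change 5.50 ± 0.637, SE; edgeR adjusted p = 7.67e-05). MY16_Star held 333 reads against 3 in N2_Star, a level 91.9-fold higher (95% counting interval 31.2 to 448; edgeR adjusted p = 0.000318).

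The mRNA of nspd-9 did not follow this. It was at 3.81, 3.2 and 3.56 CPM in N2, 1.01, 1.98 and 2.95 in N2_Star, 1.25, 1.17 and 1.55 in MY16 and 1.22, 1.06 and 1.16 in MY16_Star. MY16 lay below N2 in mRNA without being called (log2 fold change −1.42 ± 0.368, SE; edgeR adjusted p = 0.0531), and between the Star groups it was −0.78 ± 0.369 (adjusted p = 0.134). All 9 tested nspd genes had an mRNA log2 fold change below 0 between MY16 and N2, with a median of −1.38. Of nspd mRNA reads, nspd-9 took 2.25% to 3.55% in the libraries named N2 and 2.33% to 11.4% in those named MY16, which overlapped. Of the small RNA of the nspd family, nspd-9 took 0% to 0.76% in the libraries named N2 and 19.6% to 60.4% in those named MY16. The nspd small RNA sum was 43.2 ± 16.9 CPM in N2, 45 ± 22.7 in N2_Star, 57 ± 31.4 in MY16 and 39.4 ± 12.8 in MY16_Star. Without nspd-9, the other 9 nspd genes summed to 43 ± 16.8, 44.7 ± 22.4, 43 ± 25.1 and 24.7 ± 15.6 CPM.

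The msp genes called in small RNA had lower group means in MY16 and MY16_Star than in N2 and N2_Star, and 3 of the 4 were also called in mRNA. The small RNA of msp-19 was at 8.52, 6.82 and 1.3 CPM in N2 and 2.67 and 4.58 in N2_Star, against 0, 0.305 and 0.743 in MY16 and 0, 0.072 and 0 in MY16_Star. The isolates did not overlap (log2 fold change −3.73 ± 0.728 in MY16, SE; edgeR adjusted p = 0.00338). MY16_Star held 1 read against 63 in N2_Star, a level 76.1-fold lower with a 95% counting interval of 13.2 to 3053 (edgeR adjusted p = 0.00173). Small RNA of msp-50 was at 6.31, 5.93 and 7.79 CPM in N2 and 3.93 and 8.07 in N2_Star, against 2.29, 1.68 and 2.23 in MY16 and 0.44, 0.936 and 0.813 in MY16_Star. It did not overlap either, with log2 fold changes of −1.68 ± 0.4 in MY16 (SE; adjusted p = 0.0114) and −2.90 ± 0.442 in MY16_Star (SE; adjusted p = 0.00098). Of 18 alternatives, 16 kept the first call (adjusted p up to 0.0779) and 18 the second.

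The small RNA of msp-76 was at 6.42, 6.02 and 0 CPM in N2 and 4.25 and 1.74 in N2_Star, against 1.72, 0.153 and 0 in MY16 and 0 in all 3 MY16_Star libraries. The libraries of N2 and MY16 overlapped through the shallow replicate 3 of N2, where 0 reads allow 1.69 CPM. It was not called between MY16 and N2 (log2 fold change −3.91 ± 1.24, SE; adjusted p = 0.0561), and in MY16_Star it was at least 6.59-fold lower than in N2_Star (adjusted p = 0.0216, and up to 0.134 over 18 alternatives, of which 16 kept the call). The small RNA of msp-53 (chromosome IV, 5064678 to 5065061) was at 4.79, 4.9 and 1.3 CPM in N2, 2.79 and 1.53 in N2_Star, 1.72, 0.611 and 1.19 in MY16 and 0.22, 0.36 and 0.651 in MY16_Star (log2 fold change −1.94 ± 0.567 in MY16 and −2.41 ± 0.641 in MY16_Star, SE; adjusted p = 0.0328 and 0.0264). Both calls of msp-53 depended on the processing: the first was kept in 11 of 16 alternatives (adjusted p up to 0.155) and the second in 12 of 16 (up to 0.257). The msp-53 libraries of N2 and MY16 overlapped, and those of the Star groups did not. Its mRNA was at 3.1 ± 0.889 CPM in N2 and 1.57 ± 1.13 in MY16 and was called in neither comparison. Small RNA of msp-74, the msp gene of higher mRNA in MY16, was too low to be tested in either isolate. It was at 0 in all 6 libraries named MY16 and at most 0.134 CPM in those named N2. The small RNA of msp-56, lower in mRNA, was at 2.89 ± 2.81 CPM in N2 and 2.31 ± 2.07 in MY16, with overlapping libraries and no call.

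**Figure D4:**
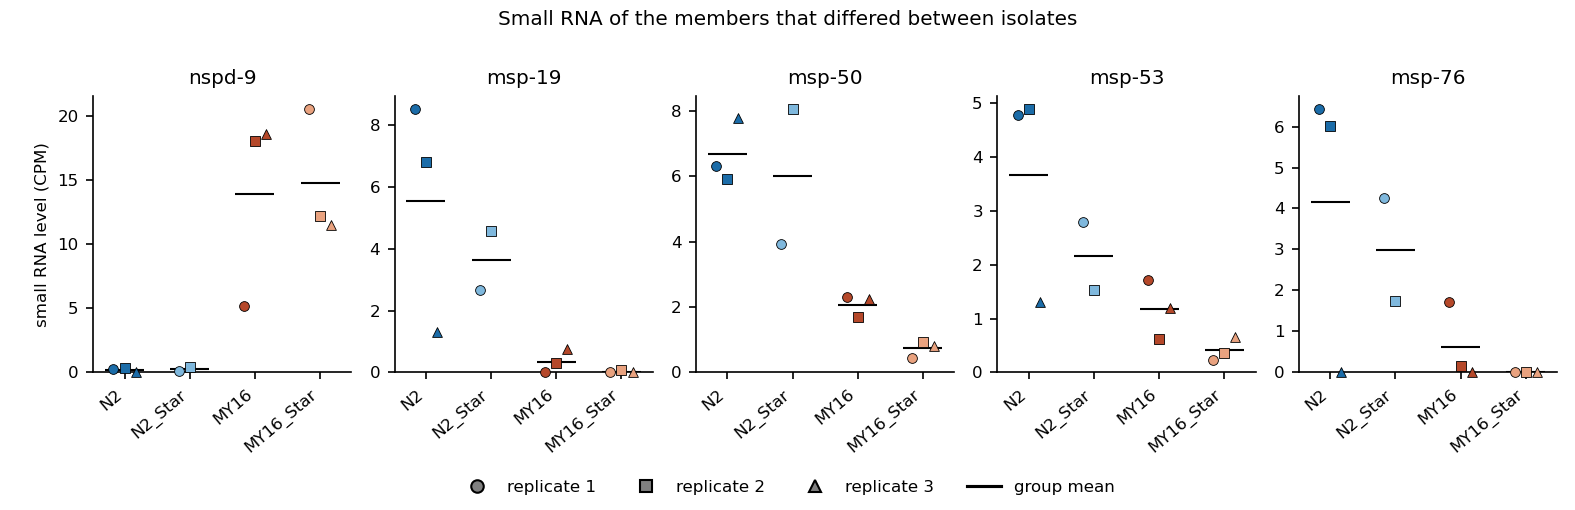
Small RNA level (CPM, vertical axis) of the 5 members called between the isolates or between the Star groups, by library; each point is a library and the bar is the group mean. nspd-9 is at most 0.436 CPM in the libraries named N2 and at least 5.16 CPM in those named MY16, and the 4 msp genes have lower group means in MY16 and MY16_Star than in N2 and N2_Star.

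No member was called in small RNA between a Star group and its own isolate or in the interaction. In MY16_Star against MY16 the median log2 fold change was −0.98 against 0.00, with 40 of 42 members below 0, a smallest adjusted p of 0.294 and 8 members with an unadjusted p under 0.05. DESeq2 called none there, and 1.02% of all genes tested were called. In N2_Star against N2 the median was −0.56 against 0.01, every adjusted p was 1, no member had an unadjusted p under 0.05, DESeq2 called none, and 0.0245% of all genes tested were called. In the interaction every adjusted p was 1 as well, no member had an unadjusted p under 0.05, DESeq2 called none, and 0.368% of all genes tested were called. With 2 N2_Star libraries the differences that involve that group are the least precise.

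Levels can be compared between genes per length. Per kilobase of annotated span, the mean mRNA level over the 12 libraries was highest for nspd-1 among the nspd genes, at 72.9, and for msp-40 among the msp genes, at 38.5 CPM per kilobase. The mean small RNA level was 42.8 CPM per kilobase for ssp-16 and 37.6 for nspd-5, the highest of their families, against 17 for msp-81, the highest of the msp genes. Across the 28 msp genes of 384 bases, Spearman's rho between the mean mRNA level and the mean small RNA level was 0.43. The points are genes that share libraries and reads of near-identical copies and are not replicates, so this is a description.

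**Figure D5:**
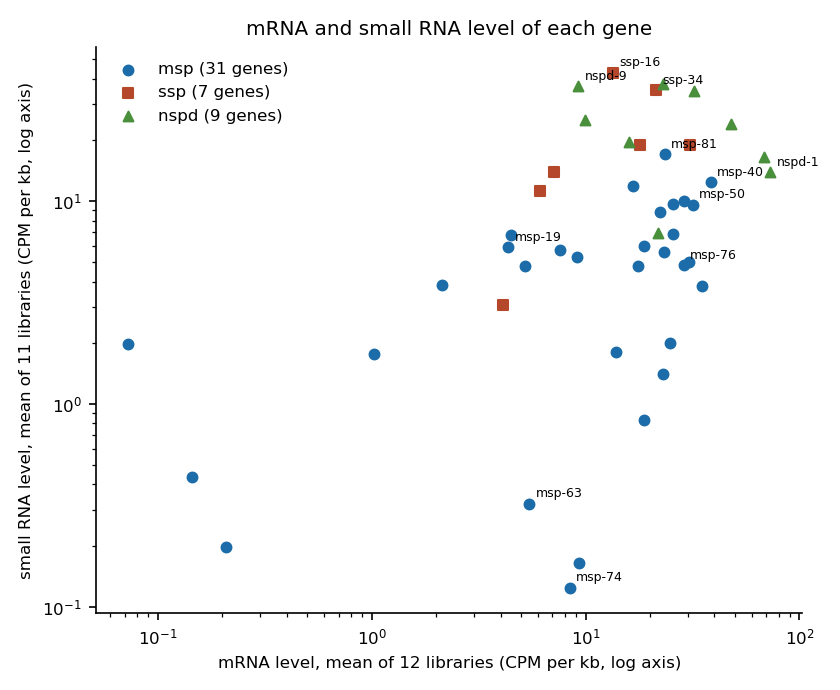
Mean small RNA level against mean mRNA level (CPM per kilobase, both axes logarithmic) of the 47 msp, ssp and nspd genes with an annotated span of at most 384 bases and reads in both assays; each point is a gene, coloured by family. The ssp and nspd genes include the highest small RNA levels.

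Other genes of sperm were read in the same comparisons. A sperm function list, the 44 measured genes named spe, fer, ssq or msd or known to act in sperm, held 38 genes tested in mRNA. Between MY16 and N2, 1 fell and none rose (median log2 fold change −0.96), a share near the 2.31% of all genes tested that were called lower. The gene that fell was msd-2, which encodes a small protein with a major sperm protein domain, from 5 ± 1.4 CPM in N2 to 0.0854 ± 0.078 in MY16 (log2 fold change −5.75 ± 1.06, SE; edgeR adjusted p = 0.00635). Between the Star groups 18 fell and none rose (median −1.65), where 14.8% of all genes tested were called lower. Those with the smallest p were spe-12 and spe-8, both needed for sperm activation in hermaphrodites, msd-2 again, and spe-49, a sperm membrane protein needed for fertilization. The level of spe-12 was 1.65 ± 0.878 CPM in N2_Star and 0.18 ± 0.0989 in MY16_Star (log2 fold change −3.14 ± 0.601, SE; adjusted p = 0.00542). None was called in MY16_Star against MY16 (median −0.64) or in N2_Star against N2 (median −0.11). The list summed to 614 to 646 CPM in N2, 337 to 627 in N2_Star, 329 to 477 in MY16 and 321 to 405 in MY16_Star. These sums include abundant genes that did not fall. Among them, spe-39 was at 87.8 ± 4.18 CPM in N2 and 87.4 ± 9.75 in MY16_Star, and cpb-1 at 71.7 ± 3.22 and 78.7 ± 8.91. Others fell, such as ssq-2, at 69.6 ± 7.77 CPM in N2 and 13.9 ± 11.2 in MY16_Star.

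Regulators of sperm fate and of sperm small RNA were measured as well, with spe-44 in this list and in the sperm function list. Of 13 such genes, all tested in mRNA, none was called between MY16 and N2 (median log2 fold change −0.14), and between the Star groups 2 fell and 2 rose (median 0.00), where 14.8% of all genes tested were called lower and 7.69% higher. The Argonaute gene alg-3 fell from 15.4 ± 9.27 CPM in N2_Star to 3.71 ± 3.35 in MY16_Star (log2 fold change −2.06 ± 0.674, SE; adjusted p = 0.0461). The GATA factor gene elt-1 fell from 9.34 ± 1.07 to 4.05 ± 0.499 CPM (−1.20 ± 0.247, SE; adjusted p = 0.00779). The Star groups overlapped for alg-3 (4.73, 21.1 and 20.4 CPM against 1.16, 2.47 and 7.51) and not for elt-1. The Argonaute gene alg-4, at 15.3 ± 9.6 CPM in N2_Star and 4.37 ± 3.62 in MY16_Star, was not called. The sex determination genes fem-2 and fog-2 rose, by 0.59 ± 0.129 and 0.49 ± 0.14 on the log2 scale (SE; adjusted p = 0.0101 and 0.0291). In small RNA, between MY16 and N2, 3 of 37 tested sperm function genes were higher and 2 lower, where 8.55% of all genes tested were called higher and 10% lower. They included spe-41, a sperm cation channel, at 46.5 ± 6.22 CPM in N2 and 115 ± 11.9 in MY16 (log2 fold change 1.32 ± 0.159, SE; adjusted p = 0.000103), and spe-15, an unconventional myosin, at 22.6 ± 1.44 and 6.46 ± 0.587 CPM (−1.81 ± 0.261, SE; adjusted p = 0.000399). In MY16_Star against MY16, spe-18 was the one sperm function gene called in small RNA of 37 tested, where 1.02% of all genes were called (−1.76 ± 0.326, SE; adjusted p = 0.0245).

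Markers of other tissues moved beside the sperm families in part. The 10 oocyte genes summed to 10937 to 12971 CPM of mRNA in N2, 6980 to 11240 in N2_Star, 10310 to 13570 in MY16 and 14321 to 18245 in MY16_Star. Of them 7 were called higher in MY16_Star than in N2_Star (median log2 fold change 0.79), where 7.69% of all genes tested were called higher, and none was called between MY16 and N2 (median 0.07). The 10 markers of male neurons and glands summed to 0.466 to 3.02 CPM in mRNA, and none passed the filter on low counts. Of these, the sensory neuron channel genes pkd-2 and lov-1 had group means of at most 0.0782 and 0.0556 CPM. The early embryo list summed to 0.625 to 2.1 CPM. The 5 body wall muscle genes summed to 3228 to 3598 CPM in N2, 3149 to 3719 in N2_Star, 2756 to 3719 in MY16 and 2015 to 3050 in MY16_Star. The Star groups did not overlap. Of the 5, 1 was called lower in MY16_Star than in N2_Star, where 14.8% of all genes tested were called lower. The 6 intestine genes summed to 39395 to 44930, 51609 to 70867, 31231 to 50549 and 41812 to 47943 CPM in the same order, with N2_Star above every library of the other groups and no gene called. The 5 neuron genes summed to 190 to 266 CPM. In MY16_Star against N2_Star, 1 of these 5 (egl-3) was called lower, against the same 14.8% of all genes tested. The part of the oocyte RNA, or of other tissues, in the levels of the sperm families was not tested.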

How the data were processed

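The authors deposited raw read counts, not normalized, for each gene in 12 mRNA and 11 small RNA libraries. Per the submitters' processing notes, cutadapt, FastQC, Bowtie2, HTSeq and DESeq2 were used with ce11, with no versions. The labels' protocols name TRIzol and, for either assay, a kit for small RNA libraries. Summary lines that name no gene (7.84% to 17.7% of counts in mRNA, 38.7% to 46.6% in small RNA) were left out. Symbols were found for 44017 of 46904 gene IDs, and coordinates are from RefSeq (WBcel235, 1-based).

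From these counts, filterByExpr, TMM factors and the quasi-likelihood F-test of edgeR 4.0.16 (R 4.3.3) were run per assay on all 4 groups without a block, and p-values were adjusted by Benjamini and Hochberg over 13983 mRNA and 12241 small RNA genes. The procedure was tested on simulated data in which each gene varied on its own. Shifts shared by many genes of a library, like those of the sperm families, were not simulated. DESeq2 1.42.0, other scaling, filters and fits, and single libraries left out were tried as alternatives. Members named are those called (at most 10 per comparison, by p), the most abundant of each family, the 3 largest non-overlapping changes per assay and those called in both assays. Further members were named after their values were seen (msp-32, msp-63, msp-142 and nspd-2 for their shares, and members set beside a named one). The members and lists were chosen with earlier results of these data known. Counting intervals are exact at 95%. They are for reads pooled over the libraries of a group, so they cover counting error only and not the spread between libraries.

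A replicate number was taken to pair 2 groups where every correlation of deviations from the group means, between same-numbered libraries, was over 0.1. That held only for small RNA of MY16_Star and MY16 (0.316, 0.117 and 0.364), where the replicate block also called 0 members. In mRNA of MY16_Star and MY16 the values were 0.42, −0.00574 and 0.531, and for MY16_Star and N2_Star 0.255, −0.176 and 0.351. With at most 3 libraries per group, this rule cannot show that pairing is absent.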

Additional observations from a re-analysis of the deposited data

How the results depend on the processing

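Among the members named by the rules above, no call changed direction under the alternatives run. Direction was not followed gene by gene for the other called members. The members' median log2 fold change in mRNA of N2_Star against N2, −0.30 with no member called, was 0.04 without replicate 1 of N2_Star. For mRNA of MY16 against N2, 5 members were called; DESeq2 called 9, the replicate block 15, a fit of only the 2 groups 13, and both of these together, an alternative chosen after seeing the data, 22. Leaving out single libraries gave 2 to 8. There msp-76 and msp-74 were called under all 19 alternatives, msp-56 under 18, and msp-50 and msp-19 under 13. For MY16_Star against N2_Star, 30 members became 5 in a fit of only the 2 groups and 6 to 46 with a library left out. In small RNA of MY16 against N2, 4 members became 8 with no filter on low counts, 2 with only the 2 groups, 1 with the replicate block added to that, and 2 to 5 with a library left out. In small RNA of MY16_Star against N2_Star, 5 became 10 with no filter, 10 with the replicate block in the fit of 2 groups, and 3 to 6 with a library left out. In small RNA of MY16_Star against MY16, 0 became 1 with no filter. The other counts of 0 members stayed at 0 under each alternative. The cause of these changes was not tested. No source says that a replicate number marks a shared batch, and the correlations above cannot show that pairing is absent. For all genes, mRNA of MY16_Star against N2_Star went from 3145 calls to between 792 and 4057, N2_Star against N2 from 21 to between 0 and 387, and the interaction from 0 to at most 77 (DESeq2). In small RNA, MY16 against N2 went from 2271 to between 1119 and 2719, MY16_Star against MY16 from 125 to at most 522, N2_Star against N2 from 3 to at most 123, and the interaction from 45 to at most 282, the last 3 with no filter. Summing near-identical copies by protein identity was not run. Depth limits small RNA of low members: 0 reads allow up to 1.69 CPM in the shallowest library.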
